A study of Mus musculus with 16 samples.

Results

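Myog, Mymk and Cdkn1a are 3 genes of muscle differentiation, found by symbol among the 831 genes of the deposited table, and all 3 are listed there. RNA was sequenced from whole tibialis anterior muscle, a fast hindlimb muscle, of mice at postnatal day 30, in 16 libraries from 4 genotypes. The 4 mdx/miR-133b-/- libraries (genotype mdx-/-;miR-133b-/- in the labels) lack both dystrophin and the microRNA. The 4 mdx libraries (mdx-/-) carry the mutation of the dystrophin gene that makes the mdx mouse a model of Duchenne muscular dystrophy. The 4 miR-133b-/- libraries lack miR-133b, a microRNA of skeletal muscle, and the 4 Control libraries are wild type. Neither the strain and sex nor the number of animals behind a library is stated in the sources used here. The question posed by the series is whether miR-133b slows the dystrophy.

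When a muscle fibre dies, satellite cells divide as myoblasts, leave the cell cycle, differentiate and fuse into new fibres, and mdx muscle is known for repeated rounds of this repair. Myogenin, the product of Myog, is a basic helix-loop-helix transcription factor that binds E-boxes and drives terminal differentiation; fibres that lose their nerve also express it. Myomaker, the product of Mymk, is a membrane protein that myoblasts need in order to fuse, and Mymk is a known target of the myogenic factors. p21, the product of Cdkn1a, inhibits cyclin-dependent kinases and is induced both as myoblasts leave the cell cycle and by p53.

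In the GRCm38 annotation Myog lies on chromosome 1 from 134289989 to 134292548 on the plus strand, with 1495 bases of exon. Mymk lies on chromosome 2 from 27061636 to 27072179 on the minus strand, with 1511 bases of exon. Cdkn1a lies on chromosome 17 from 29090976 to 29100727 on the plus strand, with 3553 bases of exon. Values are counted over each gene's exons as a whole. Cdkn1a shares part of its span with 1 other gene model, AC167363.2. The strand and exons of that model were not compared with those of Cdkn1a, and no source used here says whether counting used strand. Reads of the pair may therefore not be told apart.

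Start-site windows from RefSeq, 250 bases before to 50 after the start on GRCm38.p6, were used for Myog and Cdkn1a. They are shown because E-boxes (CANNTG) bind myogenic factors and p53 binds pairs of decamers, and both kinds of factor are known to act on such genes. In the Myog window, chr1:134289754-134290053 on the plus strand, capitals mark 2 E-boxes. In the upstream of 2 Cdkn1a windows, chr17:29090729-29091028 on the plus strand, capitals mark 2 p53 decamers that match without mismatch. These 2 do not adjoin each other and are not marked as a pair. The mature strand of the deleted microRNA, miR-133b-3p, chr1:20682834-20682855 on the plus strand, has its seed (bases 2 to 8) in capitals.
Myog start-site window: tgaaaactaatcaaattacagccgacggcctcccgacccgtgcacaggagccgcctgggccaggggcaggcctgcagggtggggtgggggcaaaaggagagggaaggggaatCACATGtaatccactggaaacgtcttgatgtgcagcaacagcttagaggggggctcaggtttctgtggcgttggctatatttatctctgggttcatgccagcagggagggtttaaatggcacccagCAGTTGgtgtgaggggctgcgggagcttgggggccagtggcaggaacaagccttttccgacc
Cdkn1a upstream start-site window: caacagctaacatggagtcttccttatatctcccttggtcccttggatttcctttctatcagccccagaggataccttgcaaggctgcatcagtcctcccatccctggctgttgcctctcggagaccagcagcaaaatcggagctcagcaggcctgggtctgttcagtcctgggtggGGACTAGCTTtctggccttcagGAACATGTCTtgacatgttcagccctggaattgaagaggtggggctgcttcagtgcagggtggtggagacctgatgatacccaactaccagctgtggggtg
mmu-miR-133b-3p: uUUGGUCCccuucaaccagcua

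The Myog E-boxes, CACATG and CAGTTG, begin at positions -138 and -12, with the start base as position 1 and no position 0. The same window holds 1 p53 decamer at position 32. The Cdkn1a decamers begin at positions -73 and -51, and that window also has CAGCTG, itself an E-box, at position 38. The downstream Cdkn1a window, chr17:29093519-29093818, holds the E-boxes CAGGTG and CAACTG at positions -187 and -4 and no p53 decamer. Of 32851 RefSeq windows of the same length, 72.3% hold an E-box and 39.6% hold 2 or more, so the Myog count is a common one. CAGCTG occurs in 16.3% of windows, a p53 decamer in 8.36%, and 2 or more decamers at any spacing in 0.359%. Decamers with a mismatch were not searched for, so adjoining pairs that hold one were missed. Each motif was searched along 1 strand, which covers both, since the patterns read the same on either strand. The 7-base site that pairs with the miR-133b seed, GGACCAA, is absent from the annotated 3' UTRs of Myog (753 bases), Mymk (552 bases) and Cdkn1a (1334 bases). It is present in 76 of the 780 listed genes with a 3' UTR (9.74%). A match or its absence describes these letters only.

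The values are scaled reads, that is read counts that the authors multiplied by 1 factor per library. Reads in the listed genes numbered 2356990 to 6000033 per library, and the full depth is unknown. The table is a selection: in every listed gene the mdx/miR-133b-/- and miR-133b-/- means differ by at least 1.72-fold. The values of the 3 genes in that comparison are therefore description, and only mdx against Control uses neither group. The other comparisons use 1 or both of those groups. All 3 genes are listed as high in mdx/miR-133b-/- against miR-133b-/-, so their values in those comparisons are partly set by the selection. The selecting comparison also concerns the mdx mutation, so genes listed as high may be called higher more often in mdx against Control too. Of the 831 genes 498 are listed as high and 333 as low, and the shares of all listed genes given below mix both. The genotypes rest on the labels alone, since Dmd and the microRNA's own locus were not analysed here. Libraries were grouped by the code in their titles; the description field names another sample for 14 of 16 and another group for 12, and what that grouping gives stands beside the results. In miR-133b-/- replicate 2 the 6 listed muscle fibre genes sum to 354723 scaled reads, below the 683770 to 785464 of the other miR-133b-/- libraries.

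All 3 genes were higher in mdx than in Control muscle, by 2.34-fold for Myog, 3.43-fold for Mymk and 2.84-fold for Cdkn1a. Mymk and Cdkn1a were also higher in mdx/miR-133b-/- than in Control muscle, by 3.03-fold and 3.19-fold, while Myog did not pass the test. The table was selected with the mdx/miR-133b-/- levels, so this second rise is partly built in. No difference between mdx/miR-133b-/- and mdx, or between miR-133b-/- and Control, passed for any of the 3. These are levels in whole muscle, where more cells of a type and more RNA per cell cannot be told apart.

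Myog, the differentiation factor, had 205.9, 62.9, 117.8 and 92.8 scaled reads in the mdx/miR-133b-/- libraries and 154.5, 173.7, 188.2 and 103.3 in the mdx libraries. It had 19, 72.8, 10.3 and 51.6 in the miR-133b-/- libraries and 42.2, 60.6, 70.2 and 93.3 in the Control libraries. The mdx libraries were all above the Control libraries, the closest pair being 103.3 against 93.3, whereas mdx/miR-133b-/- replicates 2 and 4 lay inside the Control range. The means were 119.9 ± 61.6 in mdx/miR-133b-/-, 154.9 ± 37.1 in mdx, 38.4 ± 29.0 in miR-133b-/- and 66.6 ± 21.3 in Control (SD, n = 4 each). The lowest library, miR-133b-/- replicate 3, held 14 Myog reads, with a 95% Poisson interval of 7.65 to 23.5 that covers counting error only. miR-133b-/- replicate 2 held 102 reads (83.2 to 124).

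Mymk, the fusion gene, had 290.7, 129.2, 251.2 and 204.8 scaled reads in the mdx/miR-133b-/- libraries and 169.4, 322.4, 333.9 and 175.1 in the mdx libraries. It had 52.0, 82.8, 12.5 and 26.1 in the miR-133b-/- libraries and 50.7, 86.5, 91.4 and 55.2 in the Control libraries. All 8 libraries of the dystrophic genotypes were above all 8 of the others. This is partly built in, since it includes the comparison that defined the table. In that comparison the mdx/miR-133b-/- libraries lay all above the miR-133b-/- libraries for 398 of the 831 listed genes. The share of listed genes separated in all 16 libraries was not counted. The means were 219 ± 69.4 in mdx/miR-133b-/-, 250.2 ± 90.2 in mdx, 43.3 ± 31.0 in miR-133b-/- and 71.0 ± 21.0 in Control (SD, n = 4 each).

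Cdkn1a, the cell cycle inhibitor, had 492.4, 272.3, 246.6 and 566.2 scaled reads in the mdx/miR-133b-/- libraries and 258.4, 362.1, 550.2 and 227.9 in the mdx libraries. It had 46.0, 115.6, 72.1 and 114.7 in the miR-133b-/- libraries and 80.0, 80.9, 131.6 and 207.5 in the Control libraries. Here too the dystrophic libraries were all above the others, with Control replicate 4 the nearest to them, and this separation is likewise partly built in. The means were 394 ± 159 in mdx/miR-133b-/-, 349.7 ± 146 in mdx, 87.1 ± 34.1 in miR-133b-/- and 125 ± 60.0 in Control (SD, n = 4 each).

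**Figure D1:**
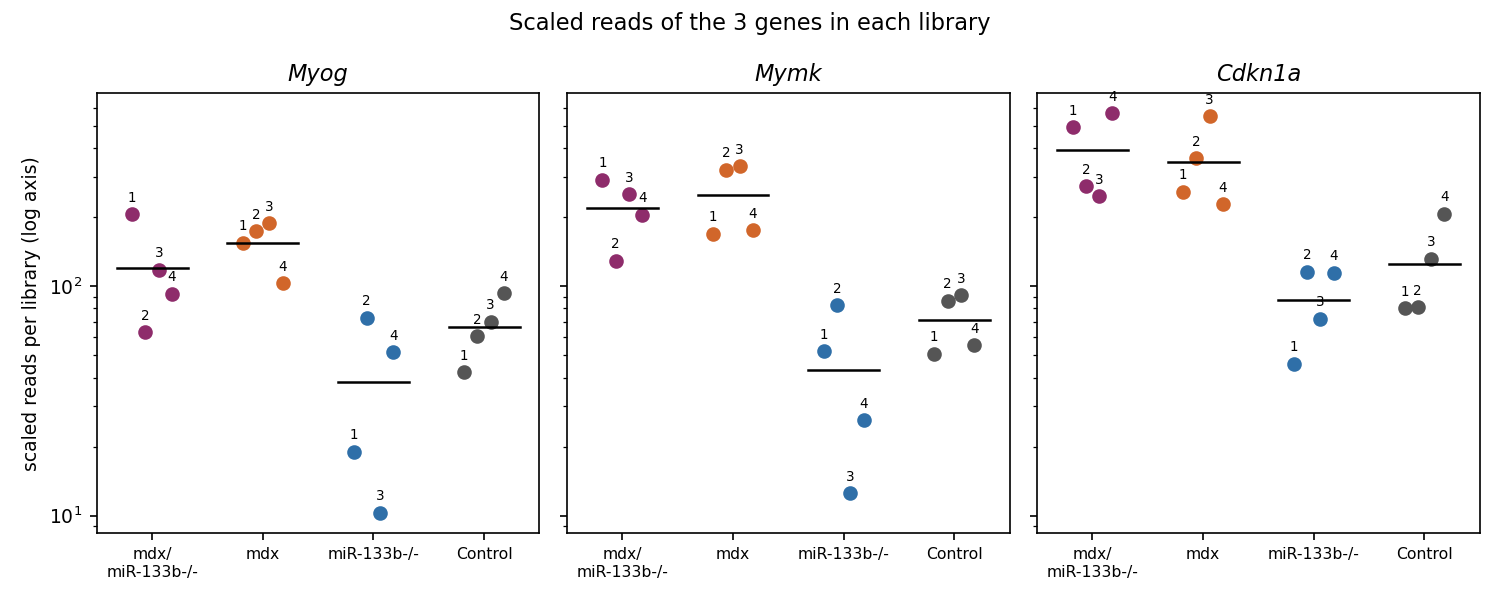
Scaled reads of Myog, Mymk and Cdkn1a in each library (log axis), by genotype; numbers are replicates and bars are group means of 4 libraries. For Mymk and Cdkn1a every mdx/miR-133b-/- and mdx library lies above every miR-133b-/- and Control library, which is partly built in by the selection of the table. For Myog, mdx/miR-133b-/- replicates 2 and 4, at 62.9 and 92.8, lie inside the Control range of 42.2 to 93.3.

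The order of mean levels was the same for Myog and Mymk, with mdx highest, then mdx/miR-133b-/-, Control and miR-133b-/-. For Cdkn1a mdx/miR-133b-/- stood above mdx. Neighbours within the dystrophic pair, and within the pair with dystrophin, overlapped for each gene and did not differ beyond the test. Per kilobase of exon, the mean levels were 80.2 for Myog, 145 for Mymk and 111 for Cdkn1a in mdx/miR-133b-/-, and 104, 166 and 98.4 scaled reads per kilobase for the same genes in mdx. They were 25.7, 28.7 and 24.5 in miR-133b-/-, and 44.5, 47.0 and 35.2 in Control. Mymk thus had the highest mean level per length of the 3 in each genotype, though in miR-133b-/- and Control the genes stood closer together than libraries of 1 genotype did.

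For mdx against Control, log2(scaled reads + 1) was compared with limma over all 831 genes, with Benjamini-Hochberg adjustment at 0.05. Myog rose by a log2 fold change of 1.23 (SE 0.48, 95% interval 0.23 to 2.22, adjusted p = 0.0295 in limma). Mymk rose by 1.78 (SE 0.43, 0.87 to 2.69, adjusted p = 0.00205 in limma), and Cdkn1a by 1.50 (SE 0.37, 0.73 to 2.28, adjusted p = 0.00223 in limma). Thus 3 of 3 rose, beside 44.5% of all listed genes called higher, and 3 of 3 had mdx libraries all above Control, beside 46.2% of listed genes. Both shares include the 333 genes listed as low in mdx/miR-133b-/- against miR-133b-/-. The 3 genes belong to the 498 listed as high, and the shares among those alone were not counted. The median over all listed genes was 0.44, and by size of the log2 fold change Mymk ranked 113, Cdkn1a 148 and Myog 205 of 831 from the top.

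The Myog call was near the threshold. It was lost without mdx replicate 1, 2 or 3 or without Control replicate 1 or 2, with log2 fold changes of 1.03 to 1.22 and adjusted p-values of 0.0532 to 0.0911 in limma. It was also lost with relative log expression factors, which centre the listed genes on one another and move their median to 0.087: the Myog log2 fold change was then 0.87 (adjusted p = 0.0761 in limma). That scaling left 260 genes called higher and 270 lower in mdx, against 370 and 180 with the authors' scaling. Mymk and Cdkn1a passed in all 26 alternatives that kept the title grouping, with log2 fold changes of 1.42 to 2.04 and 1.15 to 1.78. With libraries grouped by the description field the log2 fold changes were -0.15 for Myog, -0.093 for Mymk and 0.36 for Cdkn1a, and limma called 0 of the 831 genes, with 0 at an unadjusted p under 0.05.

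**Figure D2:**
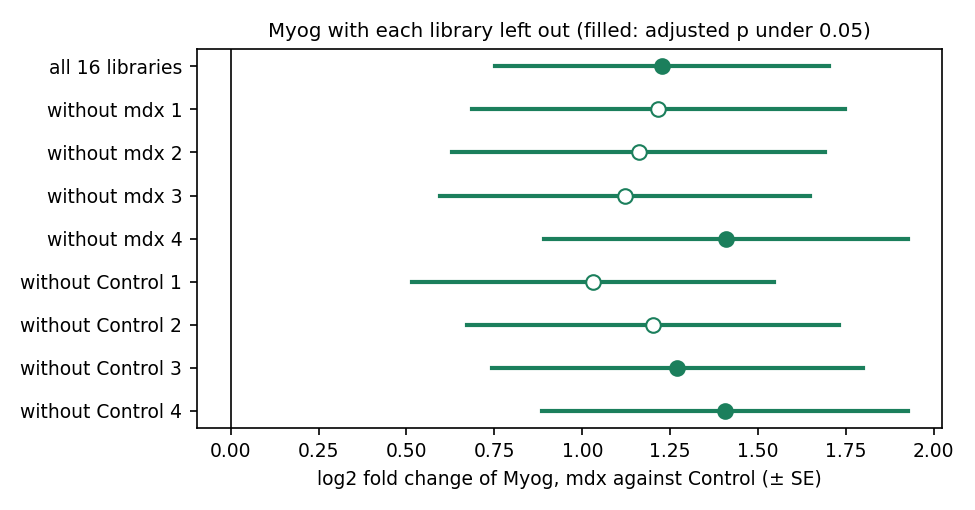
Log2 fold change of Myog in mdx against Control (x axis, bars ± SE) with all 16 libraries and with each mdx or Control library left out; filled points pass at an adjusted p of 0.05. The value stays between 1.03 and 1.41, and leaving out any of 5 of the 8 libraries ends the call.

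For mdx/miR-133b-/- against Control, Mymk rose by 1.60 on the log2 scale (95% interval 0.69 to 2.50, adjusted p = 0.00241 in limma) and Cdkn1a by 1.67 (0.89 to 2.45, adjusted p = 0.000547 in limma). Myog had a log2 fold change of 0.76 (-0.23 to 1.76, adjusted p = 0.132 in limma) and did not pass. Thus 2 of 3 rose, beside 54.3% of listed genes called higher, and the same 2 did not overlap, beside 44.9%. This comparison shares the Control libraries with the one before, and its median over all listed genes was 0.73, so Myog stood at the middle of the table, at rank 405 of 831. It also uses the mdx/miR-133b-/- libraries on which the table was selected, and the 3 genes entered with high values there. A rise here is therefore partly built in. With each library's trend over GC content and gene length removed, Myog passed, at 1.44 (adjusted p = 0.0128 in limma). With the description grouping the log2 fold changes were -0.33 for Mymk and 0.67 for Cdkn1a.

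For mdx/miR-133b-/- against mdx, the log2 fold changes were -0.47 for Myog (95% interval -1.46 to 0.53, adjusted p = 0.544 in limma), -0.18 for Mymk (-1.09 to 0.73, adjusted p = 0.821) and 0.17 for Cdkn1a (-0.61 to 0.95, adjusted p = 0.799). None passed, beside 19.5% of listed genes called in either direction, and the libraries of both genotypes overlapped for each gene. The intervals allow more than a 2-fold difference downwards for Myog and Mymk. The Mymk value was 0.051 without mdx/miR-133b-/- replicate 2 and 0.24 with the GC and length trend removed. That of Cdkn1a was -0.036 without mdx/miR-133b-/- replicate 4 and -0.0081 without mdx replicate 4, so no direction can be given for either gene. With the description grouping Myog had 0.36.

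For miR-133b-/- against Control, the log2 fold changes were -1.09 for Myog (95% interval -2.08 to -0.09, adjusted p = 0.426 in limma), -0.96 for Mymk (-1.87 to -0.06, adjusted p = 0.432) and -0.50 for Cdkn1a (-1.27 to 0.28, adjusted p = 0.699). The libraries of both genotypes overlapped for each gene. Limma called 0 of the listed genes (0%), with 84 at an unadjusted p under 0.05, and limma-voom on unscaled reads called 0, with 61. Myog and Mymk were among those 84, with unadjusted p-values of 0.0337 and 0.0385 in limma, and ranked 818 and 804 of 831. The table was selected with the miR-133b-/- levels, and all 3 genes entered with low values there. Lower values in this comparison are therefore partly built in, and these intervals, p-values and ranks are description. Without miR-133b-/- replicate 2, the library with little fibre RNA and the highest level of all 3 genes in its group, the values were -1.51 for Myog, -1.37 for Mymk and -0.66 for Cdkn1a, and the adjusted p was 0.126 for Myog and Mymk. With the description grouping the values were 0.22, 0.30 and 0.24 in the same gene order.

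The interaction asks whether losing miR-133b had a different effect with the mdx mutation than without it, as the difference between the last 2 fold changes of each gene. It was 0.62 for Myog (95% interval -0.78 to 2.03, adjusted p = 0.623 in limma), 0.78 for Mymk (-0.50 to 2.07, adjusted p = 0.492) and 0.66 for Cdkn1a (-0.44 to 1.77, adjusted p = 0.493). None of the 3 passed, beside 0.963% of listed genes. The selection of the table also favours positive interaction values for these 3 genes. Without miR-133b-/- replicate 2 the values were 1.04, 1.19 and 0.83, still not past the threshold, while the count over all listed genes was 110 instead of 8. The comparison of mdx/miR-133b-/- with miR-133b-/- is the one that defines the table, and in it the log2 fold changes were 1.85 for Myog, 2.56 for Mymk and 2.17 for Cdkn1a.

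**Figure D3:**
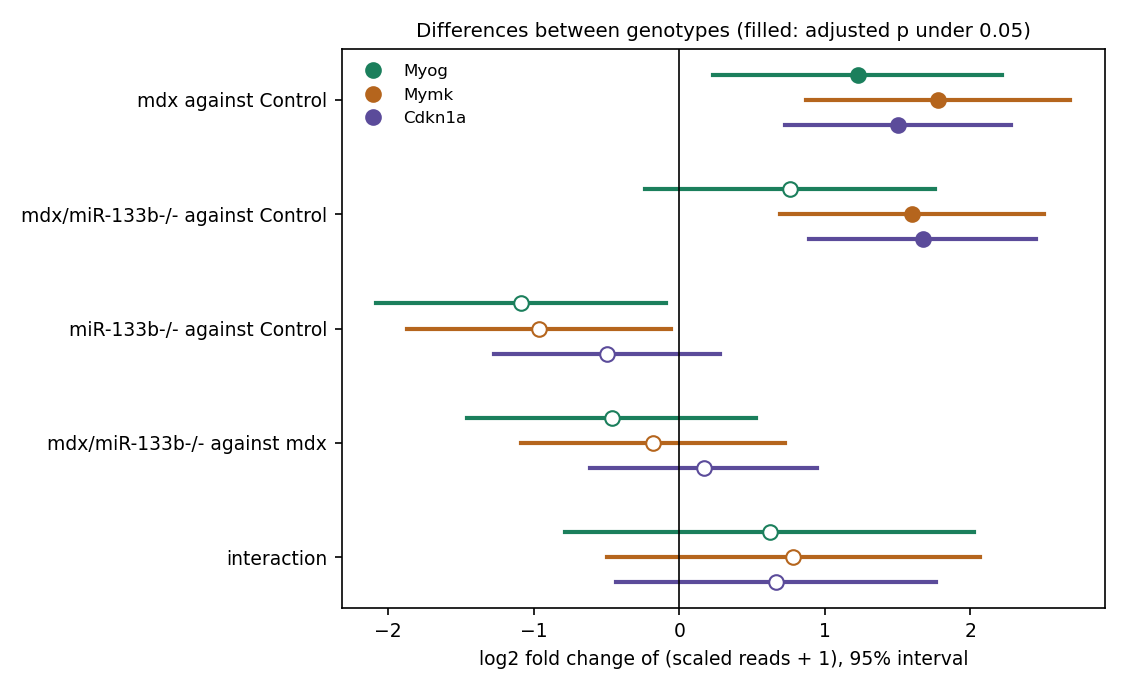
Log2 fold changes of scaled reads + 1 (points) with 95% intervals (bars) for Myog, Mymk and Cdkn1a in 4 comparisons and the interaction; filled points pass at an adjusted p of 0.05. The 3 filled points of mdx against Control lie at 1.23, 1.78 and 1.50, and for mdx/miR-133b-/- against mdx the 3 intervals all span 0.

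In ratios between the 3 genes within a library the scaling factor cancels, apart from its effect on the pseudocount of 1. The log2 ratio of Mymk to Myog was 0.65 ± 0.35 in mdx and 0.10 ± 0.57 in Control (SD, n = 4 each; exact two-sided permutation p = 0.114, adjusted over 9 tests 0.514). The log2 ratio of Cdkn1a to Myog was 1.75 ± 0.72 in mdx/miR-133b-/- and 1.12 ± 0.33 in mdx (exact p = 0.171, adjusted 0.514). None of the 9 tests of 3 ratios in 3 comparisons passed; the smallest p that 4 against 4 libraries can give is 0.0286, and the groups overlapped in each. The data thus do not show that one of the genes changed more than another.

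**Figure D4:**
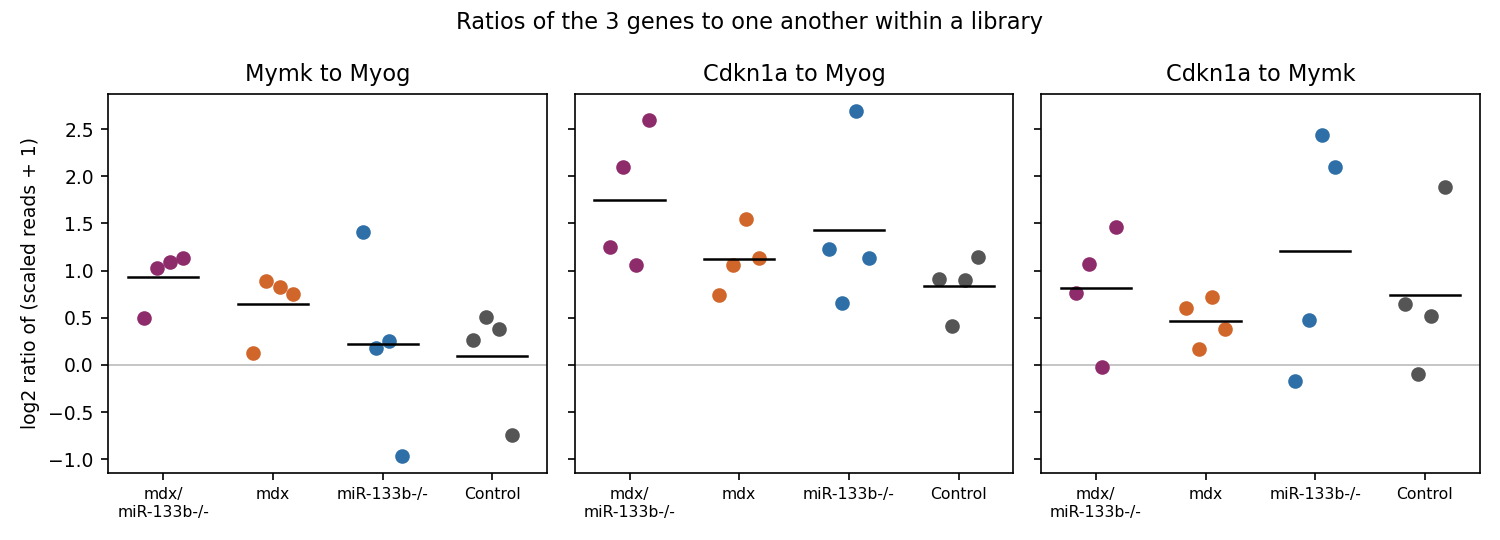
Log2 ratio of Mymk to Myog, of Cdkn1a to Myog and of Cdkn1a to Mymk within each library (points), by genotype; bars are means of 4 libraries. For Mymk to Myog the means are 0.94 in mdx/miR-133b-/-, 0.65 in mdx, 0.22 in miR-133b-/- and 0.10 in Control, and the points of neighbouring genotypes overlap.

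Libraries of 1 genotype differed in ways the genes partly shared. Among the mdx/miR-133b-/- libraries, Myog and Mymk were both lowest in replicate 2 and highest in replicate 1, whereas Cdkn1a was lowest in replicate 3 and highest in replicate 4. In mdx, replicate 3 was highest for all 3 genes, in miR-133b-/- replicate 2 was, and in Control replicate 1 was lowest for all 3. The 14 listed macrophage markers summed to 3947 scaled reads in mdx/miR-133b-/- replicate 2, the lowest of that genotype, and to 11286 in mdx replicate 3, the highest of its genotype. Elsewhere the order of that sum was another: it was highest in mdx/miR-133b-/- replicate 3, at 16257, it was 1580 in miR-133b-/- replicate 2 against 2756 in replicate 4, and it was highest in Control replicate 1, at 2417. The SD of log2(scaled reads + 1) for Myog was 0.71 in mdx/miR-133b-/-, 0.38 in mdx, 1.25 in miR-133b-/- and 0.47 in Control; for Mymk it was 0.51, 0.54, 1.15 and 0.43. For Cdkn1a it was even, at 0.60, 0.57, 0.63 and 0.65 in the same order of genotypes.

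Related genes were read from lists of known pathway members. For these lists and the marker lists too, the shares of all listed genes mix genes that entered the table as high with genes that entered as low. Of 20 myogenic transcription factors and inhibitors 2 are listed, Myog and Id2, an inhibitor of basic helix-loop-helix factors. Both rose in mdx against Control, beside 44.5% of all listed genes called higher. Id2 averaged 272.9 scaled reads in mdx and 144.5 in Control, a log2 fold change of 1.01 (adjusted p = 0.00824 in limma). With relative log expression factors neither of the 2 passed, while 260 of the 831 listed genes were called higher.

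Of 30 genes of myoblast fusion 5 are listed; 4 rose in mdx against Control, beside 44.5% of all listed genes, and 1 fell, beside 21.7%. The median log2 fold change was 1.14, beside 0.44 for all listed genes. Beside Mymk, those that rose were Anxa1, an annexin of membrane repair, at 1.27 (adjusted p = 0.000597), Myof, the membrane protein myoferlin, at 1.14 (0.0012) and Sh3pxd2b, an invadopodium adaptor, at 1.04 (0.00613), all in limma. Capn3, a protease of mature fibres, fell by 0.62 (adjusted p = 0.00322 in limma). In mdx/miR-133b-/- against Control 4 of the 5 rose, beside 54.3% of all listed genes, and Capn3 had a value of -0.31 that did not pass; with relative log expression factors 3 rose and 1 fell. In mdx/miR-133b-/- against mdx 0 of the 5 passed, beside 19.5%.

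Of 20 genes of cell cycle exit 2 are listed, Cdkn1a and Cdk6, a kinase that drives the G1 phase. Cdk6 also rose in mdx against Control, by 0.76 (adjusted p = 0.0168 in limma), beside 44.5% of all listed genes called higher. Cdk6 had 0.61 in mdx/miR-133b-/- against mdx (adjusted p = 0.114 in limma). With relative log expression factors 1 of these 2, Cdkn1a, passed in mdx against Control, while 260 of the 831 listed genes were called higher. Of 20 p53 response genes 4 are listed. In mdx against Control 2 of the 4 rose, beside 44.5% of all listed genes, and 1 fell, beside 21.7%. Beside Cdkn1a, Eda2r, a death-domain receptor, rose by 0.73 (adjusted p = 0.00375; 0.38 with relative log expression factors, adjusted p = 0.109) and Tigar, a fructose bisphosphatase, fell by 0.52 (adjusted p = 0.0359 in limma), while Trp53, which encodes p53, had 0.32 (adjusted p = 0.136). The list's counts stand near the shares of all listed genes. Tigar was the member that passed in mdx/miR-133b-/- against mdx, beside 19.5% of all listed genes called in either direction. It had 538.3 scaled reads in mdx/miR-133b-/- and 853.1 in mdx, a fall by 0.67 (adjusted p = 0.0349 in limma).

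Of 15 early muscle gene products, made by embryonic and newly formed fibres, 10 are listed, and all 10 rose in mdx against Control, with a median log2 fold change of 2.49, beside 44.5% of all listed genes and their median of 0.44. Myh3, embryonic myosin heavy chain, averaged 2533 scaled reads in mdx and 45.7 in Control, a log2 fold change of 5.54 (adjusted p = 6.2e-06 in limma). Tnni1, slow skeletal troponin I, rose by 4.00, Myl4, an embryonic and atrial light chain, by 3.73, and Chrng, the fetal acetylcholine receptor subunit, by 3.18. In mdx/miR-133b-/- against Control 9 of 10 rose, beside 54.3% of all listed genes, with Chrnd at 0.79 (adjusted p = 0.068). Against mdx 0 of 10 passed in mdx/miR-133b-/-, beside 19.5%, with a median of -0.32. The same counts held with relative log expression factors.

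Of 18 denervation response genes 9 are listed, Myog and Cdkn1a among them, and 6 of the 9 also stand in another of these lists. In mdx against Control 7 rose, beside 44.5% of all listed genes, and 1 fell, beside 21.7%. Runx1, a transcription factor induced by denervation, rose by 2.40 (adjusted p = 2.42e-05 in limma). Dach2, a repressor of Myog in innervated fibres, fell by 2.64 (adjusted p = 9.89e-06 in limma), with 27.3 scaled reads in mdx and 174 in Control. Musk, the kinase of the nerve-muscle synapse, had 0.30 and did not pass. In mdx/miR-133b-/- against mdx 0 of 9 passed, beside 19.5% of all listed genes, with Runx1 at 0.85 (adjusted p = 0.0766). In miR-133b-/- against Control 0 genes of any of these lists passed.

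**Figure D5:**
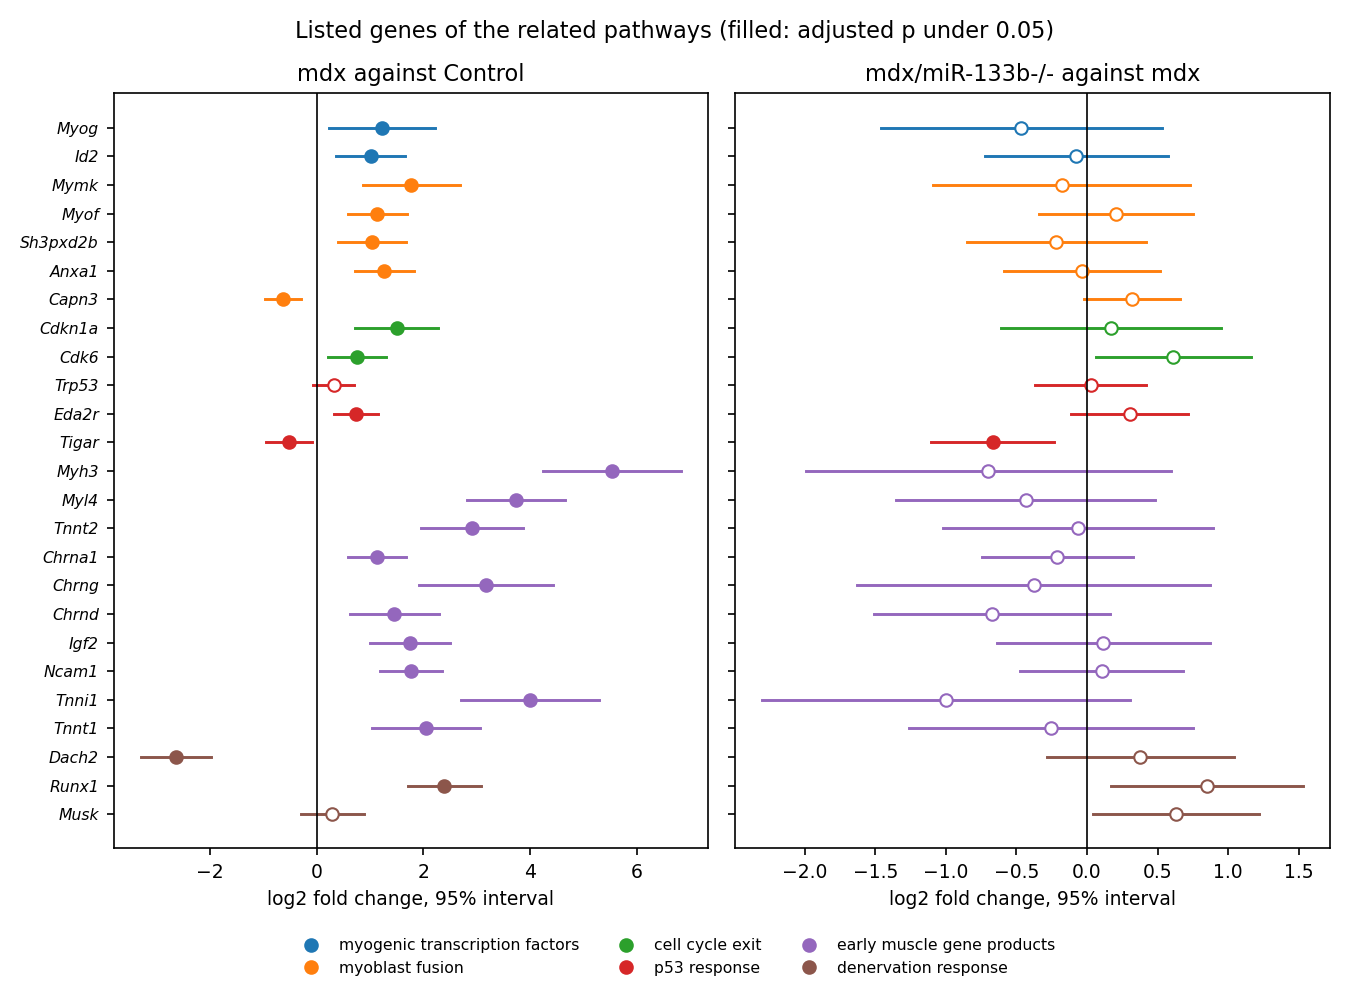
Log2 fold changes (points) with 95% intervals (bars) of the listed genes of the 6 pathway lists, in mdx against Control (left) and mdx/miR-133b-/- against mdx (right); filled points pass at an adjusted p of 0.05. On the left Dach2, Capn3 and Tigar lie below 0 and the others above it; on the right Tigar, at -0.67, is the filled point.

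Markers of macrophages and fibro-adipogenic progenitors were higher in mdx beside the 3 genes, as was the only listed satellite cell marker. No listed marker of muscle fibres, endothelium or lymphocytes was higher. Of 20 macrophage markers 14 are listed, and 13 of these rose in mdx against Control, beside 44.5% of all listed genes. Their summed level was 3947 to 16257 scaled reads in mdx/miR-133b-/-, 7130 to 11286 in mdx, 1005 to 2756 in miR-133b-/- and 1547 to 2417 in Control. Of 11 markers of fibro-adipogenic progenitors 5 are listed and 5 rose, beside 44.5% of all listed genes. With relative log expression factors 4 rose, beside 260 of 831 listed genes. Their sums were 26252 to 49738 in mdx/miR-133b-/-, 37234 to 39597 in mdx, 8835 to 20326 in miR-133b-/- and 11723 to 21604 in Control. Of 14 muscle fibre genes 6 are listed and 3 fell in mdx against Control, beside 21.7% of all listed genes. With relative log expression or upper quartile factors 5 fell, beside 270 and 207 of 831 listed genes called lower. In mdx/miR-133b-/- against mdx 4 of the 6 fell, beside 100 of 831 listed genes. Against Control 6 of 6 fell in mdx/miR-133b-/-, beside 307 of 831. The sums of the 6 muscle fibre genes were 279131 to 349210 in mdx/miR-133b-/-, 401880 to 590560 in mdx, 354723 to 785464 in miR-133b-/- and 640720 to 787594 in Control. Each library thus holds defining transcripts of the labelled tissue. The part of these cell types in the levels of Myog, Mymk and Cdkn1a was not tested. Of 12 satellite cell markers only Cxcr4, which leukocytes also express, is listed, and it rose by 1.02 (adjusted p = 0.013 in limma), or had 0.66 with relative log expression factors, without passing (adjusted p = 0.0754). Of 10 endothelial markers Flt1 is listed, and it fell by 0.75 in mdx and by 0.61 in mdx/miR-133b-/- against Control (adjusted p = 0.00241 and 0.00547 in limma). Of 10 lymphocyte markers Ighm is listed; it had -1.13 in mdx against Control (adjusted p = 0.0763) and fell by 2.77 in mdx/miR-133b-/- against Control (adjusted p = 0.000228 in limma). None of 15 proliferation markers is listed, and they were not analysed here.

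The listed genes most like each of the 3 were taken by Pearson r of log2(scaled reads + 1) over the 16 libraries, among 787 genes, as a description: libraries share their genotype and scaling. For Myog they were Tubb6, a beta-tubulin, at 0.95, Fam171a2 at 0.91, and Capn6, Fn1, which encodes fibronectin, and Aif1l at 0.90 each. For Mymk they were C1qtnf3 at 0.98, Aif1l at 0.97, Peg10, an imprinted gene, at 0.96, and Ccn4, a matricellular protein gene, and Adgrl3, an adhesion receptor gene, at 0.95. For Cdkn1a they were Timp1, a metalloproteinase inhibitor gene, at 0.95, Tnc, which encodes tenascin-C, at 0.93, Arfgap3 and Mmp19 at 0.92 and Ankrd1 at 0.91. After subtracting each genotype's mean, the most alike were Tubb6 at 0.87, Syk at 0.82 and S1pr2 at 0.81 for Myog. They were C1qtnf3 at 0.95, Adgrl3 at 0.93 and Aif1l at 0.92 for Mymk, and Fam129b at 0.87, Arfgap3 at 0.80 and Il4ra at 0.80 for Cdkn1a. Aif1l was shared by Myog and Mymk, and no gene named for Cdkn1a was named for either of them. Such short lists do not set Cdkn1a apart from Myog. Between the 3 genes, deviations from genotype means correlated at 0.67 for Mymk with Myog and 0.64 for Cdkn1a with Myog. For Cdkn1a with Mymk the value was 0.23.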

How the data were processed

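RNA was extracted with an Aurum kit with DNase treatment, per the labels' protocols. The submitters' processing notes name HISAT2, HTSeq and the GRCm38 build; their versions and settings, and any use of strand, are not given in the sources read here. The deposited signal values, for 831 Ensembl genes, are read counts times 1 scaling factor of the authors for each library (0.459 to 1), as the values show: divided by it, 100% came out whole to within 0.001 read. Symbols, coordinates and UTRs came from GENCODE M21. Titles set the groups. Whether the 4 libraries of a group are separate animals is not stated, and p-values then measure only the spread between libraries, which may be technical. No pair of libraries of a group looked like 1 library counted again (chi-square per degree of freedom at least 38.4 in 24 pairs).

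Log2(value + 1) was fitted with limma 3.58.1 in R 4.3.3, with 1 mean per group over 16 libraries, trended empirical Bayes moderation and adjustment by Benjamini-Hochberg across the 831 genes at 0.05. No gene was filtered out. The pseudocount understates fold changes of low genes. The procedure was tested on simulated data. Ratios had exact permutation tests. The genes named are the 3 genes, listed genes of the pathway and marker lists, and, for each of the 3, the 5 most alike in level and 3 in deviation, leaving out predicted models. Capn3, Dach2, Tigar and similar list members were singled out for their values. The members and lists were chosen with earlier results of these data known. Alternatives covered pseudocounts, the variance trend, a mean of at least 100, scaling factors, limma-voom, 2-group fits, a replicate block, GC and length trends, the description grouping and leaving out each library.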

Additional observations from a re-analysis of the deposited data

Results flagged for a closer look

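In the mdx/miR-133b-/- libraries, 1 library stood apart in the log2 ratio of Mymk to Myog: replicate 1 had 0.50, while the other 3 had 1.03 to 1.13. Its gap to the nearest of them was 0.832 of the group's range, above the 95% critical value of Dixon's test for 4 samples. This was 1 of 24 groups of 4 examined, and chance puts about 1 in 20 groups past that value. Replicate 1 had the highest Myog level of its genotype, 205.9 scaled reads, and the highest Mymk level, 290.7.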

How the results depend on the processing

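The Mymk and Cdkn1a rises in mdx and in mdx/miR-133b-/- against Control kept their direction and call in all 26 alternatives with the title grouping; Myog in mdx against Control kept its call in 19 of 25. With relative log expression factors, Myog in mdx against Control was 0.87 (adjusted p = 0.0761) and 14 interaction genes were called. With the GC and length trend removed, Myog in mdx/miR-133b-/- against Control was 1.44 (adjusted p = 0.0128 in limma) and Mymk in mdx/miR-133b-/- against mdx was 0.24, with 55 genes called there and 5 in the interaction. With genes of a mean of at least 100, which drops Myog, the interaction had 4 calls. The cause of these changes was not tested.

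Leaving out 1 library at a time gave 1.03 to 1.41 for Myog in mdx against Control. In mdx/miR-133b-/- against mdx it gave -0.34 to 0.051 for Mymk, -0.036 to 0.41 for Cdkn1a and 49 to 197 genes called, and the fewest were called without mdx/miR-133b-/- replicate 4. The interaction had 7 to 110 calls, the most without miR-133b-/- replicate 2, and 15 without mdx/miR-133b-/- replicate 1. The log2 ratio of Mymk to Myog in miR-133b-/- against Control ran from -0.27 to 0.52, and that of Cdkn1a to Mymk in mdx against Control from -0.55 to 0.11.

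Grouping by the description field gave -0.15 for Myog, -0.093 for Mymk and 0.36 for Cdkn1a in mdx against Control, and 0.22, 0.30 and 0.24 in miR-133b-/- against Control. It gave 0.36 for Myog in mdx/miR-133b-/- against mdx, -0.33 for Mymk and 0.67 for Cdkn1a in mdx/miR-133b-/- against Control, and -0.53 for Mymk in the interaction. Limma then called 0 genes in each comparison, with 1 at an unadjusted p under 0.05 in miR-133b-/- against Control and 0 elsewhere.

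Same-numbered libraries showed no strong shared deviation: their deviations from group means correlated at -0.28 to 0.25 over 24 pairs, 2 of them over 0.1. Such a check on the listed genes cannot settle whether replicate numbers pair the libraries. With the replicate number as a block, Myog in mdx against Control was 1.23 (adjusted p = 0.043 in limma), 541 genes were called in mdx against Control, 120 in mdx/miR-133b-/- against mdx, 749 in mdx/miR-133b-/- against Control and 7 in the interaction, and no call on the 3 genes changed. The planned edgeR fit was not run; limma-voom on the reads before scaling was. The 2-group fits give no interaction value. Depth limits Myog most, with 14 reads in its lowest library.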
